A study of Mus musculus with 7 samples.

Results

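The alpha-2-delta (α2δ) subunits of voltage-gated calcium channels and the gamma subunits known as transmembrane AMPA receptor regulatory proteins (TARPs) are encoded by 10 mouse genes. They were followed in the RNA of cultured oligodendroglia with and without Klf13, a zinc finger transcription factor of the Krüppel-like family. The members were taken by symbol from the gene table, Cacna2d1 to Cacna2d4 for the α2δ subunits and Cacng2, Cacng3, Cacng4, Cacng5, Cacng7 and Cacng8 for the TARPs, and all 10 were found among its 49315 genes. RNA was sequenced from 4 wildtype control libraries (genotype Klf13-wt) and 3 Klf13-knockout libraries of primary mouse oligodendroglia. The comparison asks which genes depend on Klf13 in differentiating oligodendrocytes. Both groups came from brains of newborn mice of either sex, were grown as mixed glia, separated by shake-off and microglia depletion, and kept in SATO medium, which promotes differentiation, for 6 days. The deletion was constitutive, so that every cell type in a knockout culture lacked Klf13. The labels call the libraries biological replicates, and the sources used here do not say how many pups a culture held.

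An α2δ subunit lies outside the cell membrane, brings the channel pore to the cell surface and raises the calcium current. Cacna2d1 and Cacna2d2 encode the proteins that bind gabapentin, and thrombospondins are ligands of α2δ-1. TARPs such as stargazin carry AMPA-type glutamate receptors to the surface and slow their closing. The type I TARPs (Cacng2, which encodes stargazin, Cacng3, Cacng4 and Cacng8) end in a motif that binds the PDZ domains of PSD-95-like scaffolds. The type II TARPs (Cacng5 and Cacng7) lack that classical end. Oligodendrocyte precursor cells (OPCs) carry both calcium channels and AMPA receptors, which lose ground as the cells mature, and Cacng4 is widely used as a gene of these precursors.

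The end of each TARP coding sequence shows the split between the 2 types, which the results return to. The last 30 coding bases before the stop codon are given 5′ to 3′ on the coding strand, from GENCODE M21 gene models on GRCm38, with the last 4 codons in capitals.
Cacng2, chr15:77995152-77995181, minus strand: aacacagccaaccgccggACCACGCCCGTA
Cacng3, chr7:122768814-122768843, plus strand: aatccggccaacagacgtACCACGCCTGTC
Cacng4, chr11:107734783-107734812, minus strand: agcatgctgaaccggcggACGACTCCCGTG
Cacng8, chr7:3415573-3415602, plus strand: aacacgctcaacaggaaaACCACGCCCGTG
Cacng5, chr11:107877355-107877384, minus strand: gactatgaccagatgtcaTCATCTCCCTGC
Cacng7, chr7:3366916-3366945, plus strand: gaccatctccacatctccACTTCGCCGTGC
In the type I genes these codons differ at few positions, whereas Cacng5 and Cacng7 end differently. Over whole coding sequences, TARP pairs of the same type were 64.2% to 72.8% identical and pairs of different type 63.2% to 65.6%. The α2δ pairs were 62.2% to 68.6% identical.

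Libraries held 24507471 to 59596479 counts on genes. Klf13 itself had 248, 268, 273 and 243 CPM (counts per 1000000 of the TMM-scaled library size) in control replicates 1 to 4 and 18.2, 19.9 and 21.9 CPM in knockout replicates 1 to 3, low in every library labelled knockout. Counts remained in the knockout, and which part of the gene they came from cannot be read from gene totals. The share of counts on 3 genes that collect ribosomal reads (Gm42418, Gm23935 and Lars2) was 14.1% to 18.0% for the first and last controls and for knockouts 1 and 3, and 6.03% to 7.56% in the other 3 libraries. Markers of myelinating oligodendrocytes summed to 22588 to 26786 CPM in control and 6113 to 6921 CPM in knockout libraries, and 10 of 10 were lower in the knockout. OPC markers summed to 5360 to 5746 and 5820 to 6328 CPM, with Gpr17 and Olig1 the most abundant. The cultures thus carried the oligodendroglial genes of their label, together with genes of neurons and astrocytes, which are described beside the members below.

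The 10 members covered a wide range of levels. Per kilobase of exon, which allows genes to be compared, Cacng4 and Cacng7 stood far above the rest, at means of 72.6 and 72.3 CPM per kilobase in control libraries. Cacng4 ranged there from 60.5 to 80.3 and Cacng7 from 63.8 to 78.9 CPM per kilobase, so these 2 did not differ beyond their spread. Then followed Cacng5 at 3.37, Cacng8 at 3.32, Cacna2d3 at 2.85 and Cacna2d1 at 1.96 CPM per kilobase, each overlapping its neighbour in that order. Cacna2d2 at 1.13 and Cacng2 at 0.797 CPM per kilobase came next and also overlapped each other. Cacna2d4 and Cacng3 were the lowest, at 0.0935 and 0.0883 CPM per kilobase. Oligodendroglial cultures of both genotypes therefore held mainly 2 of the 6 TARP messages, 1 of each type.

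In knockout libraries Cacng4 and Cacng7 were again the 2 highest members, but Cacng4, at a mean of 98.3 CPM per kilobase, lay above Cacng7, at 73.4, with no overlap between their ranges. Cacng2, at 3.39 CPM per kilobase, lay beside Cacna2d3, at 2.74, and these 2 overlapped, whereas in the controls it lay below Cacna2d2 in the mean. Cacng5 at 6.33 and Cacng8 at 6.24 CPM per kilobase still overlapped each other. Cacng3, at 0.241 CPM per kilobase, lay above Cacna2d4, at 0.0679, without overlap, whereas these 2 lowest members overlapped in the controls.

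**Figure D1:**
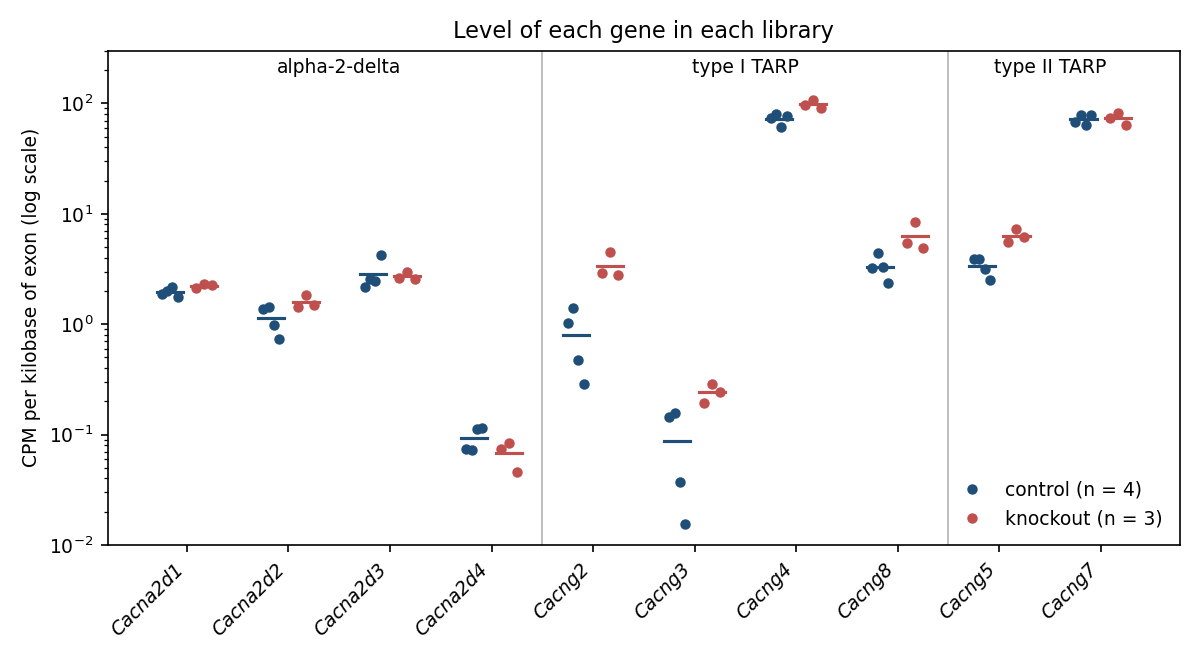
Level of each member in each library, in CPM per kilobase of exon on a log axis, with control and knockout libraries as separate points and the group means as lines. Cacng4 and Cacng7 lie above 60 CPM per kilobase in every library, and Cacng2 lies between 0.29 and 1.40 in control and between 2.78 and 4.47 in knockout libraries.

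Of the 10 members, 4 rose in the knockout, Cacng2, Cacng4, Cacng5 and Cacng8, none fell and 6 did not pass the test. Among all 18352 genes tested, 11.6% rose and 12.2% fell by the same rule. A gene passed where the p from edgeR's quasi-likelihood fit, after Benjamini-Hochberg adjustment across these genes, was 0.05 or less. Cacng2 was the member that also met the stricter rule used by the study, a further minimum of 1 for the log2 difference, which 3.97% of all genes met upward. The median log2 fold change was 0.47 over the 10 members, 0.91 over the 6 TARPs and 0.07 over the 4 α2δ genes, against a median of -0.0037 over all genes tested. In whole cultures, more or fewer cells of a type and more or less RNA per cell cannot be told apart.

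The largest difference among the members was that of Cacng2. This gene, on chr15:77991748-78120028 (minus strand, GRCm38), encodes stargazin, the TARP named for the stargazer mouse. It had 5.65, 7.71, 2.60 and 1.60 CPM in control replicates 1 to 4 and 16.1, 24.6 and 15.3 CPM in knockout replicates 1 to 3. Every knockout library was above every control library, and control replicates 3 and 4 were well below the other 2 controls. The log2 fold change was 2.09 ± 0.50 (SE), a 4.27-fold higher level (95% CI 1.88 to 9.67), with an edgeR adjusted p of 0.0242. Without knockout replicate 1 the adjusted p was 0.0536, and without knockout replicate 2, the highest library, it was 0.0887 at a log2 fold change of 1.84. The gene shares 323 exon bases with the antisense gene A730060N03Rik, which had 0 to 86 counts in a library beside 75 to 1573 for Cacng2. Whether the counting used strand is not stated in the sources used here.

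Cacng4 encodes the type I TARP γ-4 and was the most abundant member in the knockout libraries. It lies on chr11:107732357-107794557 (minus strand). Control libraries held 262, 287, 216 and 272 CPM, and knockout libraries 349, 381 and 325 CPM. The lowest knockout library was above the highest control, although the difference was small beside that of Cacng2. Means were 260 ± 30.6 CPM (SD, n = 4) in control and 352 ± 28.1 CPM (SD, n = 3) in knockout cultures. The log2 fold change was 0.44 ± 0.10 (SE), a 1.35-fold higher level, with an edgeR adjusted p of 0.0232. The adjusted p was 0.0587 without knockout replicate 1 and 0.0869 without knockout replicate 2.

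Cacng8, on chr7:3390683-3415648 (plus strand), encodes γ-8, the TARP best known from the hippocampus. Its control libraries held 7.53, 10.4, 7.73 and 5.495 CPM and its knockout libraries 12.7, 19.7 and 11.4 CPM. The groups did not overlap, but knockout replicate 3 was close to control replicate 2. At a log2 fold change of 0.91 ± 0.26 (SE) the level was 1.88-fold higher, with an edgeR adjusted p of 0.0390. This call was lost in 5 of the 7 fits that left out 1 library, those without control replicate 1 (0.0696), 3 (0.0691) or 4 (0.0634) and without knockout replicate 1 (0.0634) or 2 (0.130).

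Cacng3, on chr7:122670492-122769393 (plus strand), encodes γ-3, the closest relative of stargazin in function. It had 13, 19, 4 and 2 counts in control replicates 1 to 4 and 13, 51 and 39 counts in knockout replicates 1 to 3. In CPM the groups did not overlap, with 0.399, 0.435, 0.104 and 0.0426 against 0.534, 0.798 and 0.676. At these counts the log2 fold change of 1.49 had a 95% confidence interval of 0.02 to 2.96, and the edgeR adjusted p was 0.131. A difference of the size seen in Cacng8 was within that interval.

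Cacng5 encodes the type II TARP γ-5, which acts on few AMPA receptor subtypes. It lies on chr11:107874605-107915055 (minus strand). The gene had 15.1, 14.8, 12.1 and 9.69 CPM in control replicates 1 to 4 and 21.1, 28.1 and 23.6 CPM in knockout replicates 1 to 3. The groups stood clearly apart, since the lowest knockout library exceeded the highest control by more than the controls differed among themselves. Means were 12.9 ± 2.53 CPM (SD, n = 4) and 24.3 ± 3.56 CPM (SD, n = 3), a log2 fold change of 0.91 ± 0.17 (SE) and a 1.88-fold higher level, with an edgeR adjusted p of 0.0101. Cacng5 passed the test in all 7 fits that left out 1 library, with adjusted p-values up to 0.0433.

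Cacng7, on chr7:3332955-3368221 (plus strand), encodes γ-7, the other type II TARP. It had 167, 191, 156 and 193 CPM in control replicates 1 to 4 and 182, 200.3 and 155 CPM in knockout replicates 1 to 3. The groups overlapped over nearly their whole range. Its log2 fold change of 0.02 had a 95% confidence interval of -0.24 to 0.28 (edgeR adjusted p = 0.918), so that the knockout level lay between 0.848 and 1.21 times that of the control. The sign turned without control replicate 3, to -0.04, and without knockout replicate 2, to -0.07.

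Of the 2 type II genes Cacng5 rose and Cacng7 did not pass the test, although the difference between them was not tested. The 250 bases before their starts are shown to set these 2 genes side by side. Capitals mark matches, in either orientation and with overlaps counted, to NCNCCC with A or C at the first N and A, G or T at the other. The paper used this pattern, T included, as its motif for Klf proteins. With G these letters are those of a GC box and with A those of a CACCC box, to both of which Krüppel-like factors bind, and with T they are neither. The sequences are from RefSeq on GRCm38.p6 and are written on the strand of the gene.
Cacng7, chr7:3332575-3332824, plus strand: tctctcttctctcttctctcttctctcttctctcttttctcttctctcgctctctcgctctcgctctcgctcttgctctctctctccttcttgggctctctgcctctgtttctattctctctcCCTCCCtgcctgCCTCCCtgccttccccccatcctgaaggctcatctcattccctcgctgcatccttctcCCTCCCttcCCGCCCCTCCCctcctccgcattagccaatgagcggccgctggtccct
Cacng5, chr11:107915056-107915305, minus strand: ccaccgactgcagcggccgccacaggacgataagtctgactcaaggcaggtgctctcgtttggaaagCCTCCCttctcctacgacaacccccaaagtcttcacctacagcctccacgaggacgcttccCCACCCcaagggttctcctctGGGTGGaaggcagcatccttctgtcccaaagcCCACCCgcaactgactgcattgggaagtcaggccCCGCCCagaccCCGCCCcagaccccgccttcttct
The Cacng7 window held 5 matches, of which 1 had G or A and 4 had T, and that of Cacng5 held 6, of which 5 had G or A and 1 had T. A second, inner start of Cacng5 had 2, both with A. Promoter sequences were matched for 8 of the 10 members, all but Cacna2d4 and Cacng4. The windows of Cacna2d2, Cacng2, Cacng3 and Cacng8 and of the inner start of Cacng5 lie inside the span that the count table gives for the gene, as RefSeq places these starts further in. Of the members not shown, Cacna2d1 held 14 matches, Cacna2d3 13, Cacna2d2 5, Cacng2 3, and Cacng3 and Cacng8 1 each. Matches with G or A numbered 10 in Cacna2d1 and 4 in Cacna2d3, which did not pass the test, and 0 in Cacng8, which rose. A relation between matches and fold changes was not tested. Among 32851 windows of the same length before RefSeq mouse gene starts, 72.6% held at least 1 match and the median was 1, and 57.9% held at least 1 with G or A. A match is a run of letters and not a measured binding site.

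Of the α2δ genes, Cacna2d1, on chr5:15934691-16374511 (plus strand), encodes the widely expressed α2δ-1. It had 23.3, 24.9, 26.9 and 22.0 CPM in control replicates 1 to 4 and 26.4, 28.9 and 27.9 CPM in knockout replicates 1 to 3. The ranges met at their edges, with control replicate 3 above knockout replicate 1. Its log2 fold change was 0.19 ± 0.08 (SE), and the 95% confidence interval, -0.0028 to 0.39, just reached 0 (edgeR adjusted p = 0.142). With the share of ribosomal reads as a covariate it was 0.26, with an adjusted p of 0.0380.

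Cacna2d2, on chr9:107399612-107529343 (plus strand), encodes α2δ-2, which is prominent in cerebellar Purkinje cells. It had 10.9, 11.4, 7.80 and 5.86 CPM in control libraries and 11.5, 14.7 and 11.98 CPM in knockout libraries. The groups were separated by a margin far below the spread of either. The log2 fold change of 0.50 ± 0.24 (SE) did not pass the test, with an edgeR adjusted p of 0.172. It shares 82 exon bases with the antisense gene Gm17141, which had 0 to 4 counts in a library.

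Cacna2d3, on chr14:28904943-29721864 (minus strand), encodes α2δ-3, which gabapentin does not bind. Its control libraries held 7.96, 9.43, 9.10 and 15.6 CPM and its knockout libraries 9.74, 11.1 and 9.53 CPM. Control replicate 4 stood above all other libraries, and the groups overlapped. Its log2 fold change was -0.06 ± 0.23 (SE), with an edgeR adjusted p of 0.887. Without control replicate 4 its sign turned, to 0.22, which did not pass the test either (edgeR adjusted p = 0.231). The sign also turned with the replicate numbers as a block, to 0.19 (edgeR adjusted p = 0.250).

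Cacna2d4, on chr6:119236526-119352407 (plus strand), encodes α2δ-4, the subunit of photoreceptor synapses. It had few counts, 23, 30, 41 and 51 counts in control replicates 1 to 4 and 17, 51 and 25 counts in knockout replicates 1 to 3. In CPM, control libraries spanned 0.686 to 1.09 and knockout libraries 0.433 to 0.798, and the groups overlapped. With a log2 fold change of -0.47, its 95% confidence interval ran from -1.19 to 0.25 (edgeR adjusted p = 0.318). Photoreceptor markers were also near 0, with sums of 0.572 to 1.15 CPM over 5 genes, of which 1 was tested and did not pass.

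**Figure D2:**
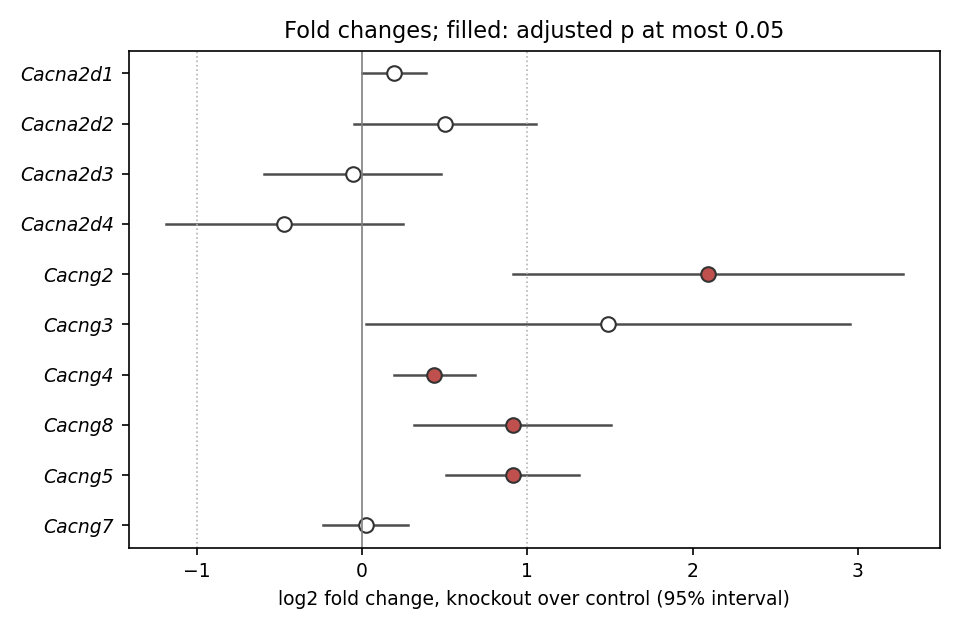
Log2 fold change of each member, knockout over control, as points with 95% confidence intervals from the edgeR fit. The intervals of Cacng2, Cacng4, Cacng5 and Cacng8 lie above 0 with an adjusted p of at most 0.05, that of Cacng7 is centred near 0 at 0.02, and those of the 4 α2δ genes reach 0 or below.

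The groups of libraries did not overlap in CPM for 6 of the 10 members, Cacna2d2, Cacng2, Cacng3, Cacng4, Cacng5 and Cacng8, all with the knockout higher. Among all genes tested, 18.3% had every knockout library above every control library. The 6 members include the scarce TARPs and the abundant Cacng4, and leave out Cacng7 and 3 of the 4 α2δ genes.

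Samples also fell into 2 classes by their share of ribosomal reads, each with libraries of both groups. In the libraries above 10% (controls 1 and 4, knockouts 1 and 3), the log2 fold change was 2.12 for Cacng2, 0.31 for Cacng4, 0.87 for Cacng8 and 0.83 for Cacng5. In those below 10% (controls 2 and 3, knockout 2), it was 2.24 for Cacng2, 0.58 for Cacng4, 1.11 for Cacng8 and 1.05 for Cacng5. For each of these 4 genes every knockout library was above every control, so positive fold changes in both classes were fixed in advance. None of the 4 passed the test above 10%. Below 10%, with 1 knockout library, no gene passed, Klf13 included, so that the test there says nothing of these genes. Cacng7 was -0.12 in the first class and 0.19 in the second.

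To see whether the makeup of each family differed, levels per kilobase were expressed as a share of the family sum in each library. Ranges of the TARP sum all but met, at 131 to 168.4 CPM per kilobase in control and 168.5 to 209 in knockout libraries. This sum was 1.23-fold higher in the mean. Cacng4 made up 48.8%, 47.7%, 46.1% and 47.6% of it in control replicates 1 to 4 and 52.5%, 50.9% and 53.9% in knockout replicates 1 to 3. Cacng7 made up 45.6%, 46.4%, 48.6% and 49.2% in control and 40.0%, 39.3% and 37.7% in knockout libraries. The 2 abundant TARPs were thus near parity in every control library, and Cacng4 led in every knockout library.

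The mean share of Cacng4 was 47.6% ± 1.11 in control and 52.4% ± 1.48 in knockout libraries, and that of Cacng7 was 47.5% ± 1.70 and 39.0% ± 1.15 (SD, n = 4 and 3). For each of the 6 TARPs the groups did not overlap, and the two-sided exact permutation p was 0.0571, the smallest that the 35 splits of 4 and 3 libraries allow, with a Benjamini-Hochberg adjusted p of 0.0816 over the 10 members. The 4 scarce TARPs were a small part, and Cacng2 made up 0.514% of the family in control and 1.79% in knockout libraries. The splits ignored the replicate numbers. Shares within a family are tied to each other, so that the 6 TARPs are not separate results here. For the same reason the lower share of Cacng7 does not show a lower level of its RNA.

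The α2δ sum was 6.03 ± 0.592 CPM per kilobase (SD, n = 4) in control and 6.64 ± 0.536 (SD, n = 3) in knockout libraries. The groups overlapped through control replicate 4 alone, at 6.84 CPM per kilobase against at most 6.07 in the other controls and at least 6.28 in the knockouts. Without division by length the sum was 42.9 to 46.5 CPM in control and 48.3 to 55.4 CPM in knockout libraries, without overlap. Of the sum per kilobase, Cacna2d1 made up 32.8% in control and 33.7% in knockout libraries in the mean, with an exact permutation p of 0.857. Cacna2d2 made up 19.2% and 24.0% (exact permutation p = 0.4), and Cacna2d3 46.5% and 41.2% (exact permutation p = 0.514). The differences of these 3 genes rested largely on control replicate 4, without which they were -1.32 points for Cacna2d1 (0.96 with it), 2.06 for Cacna2d2 (4.86 with it) and -0.25 for Cacna2d3 (-5.29 with it). The same library set much of the spread, since the SD of the controls was 5.001, 6.59 and 10.2 points for these genes with it and 2.504, 4.25 and 1.92 without it. Cacna2d4 made up 1.55% and 1.02%, without overlap, at the smallest exact permutation p of 0.0571.

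**Figure D3:**
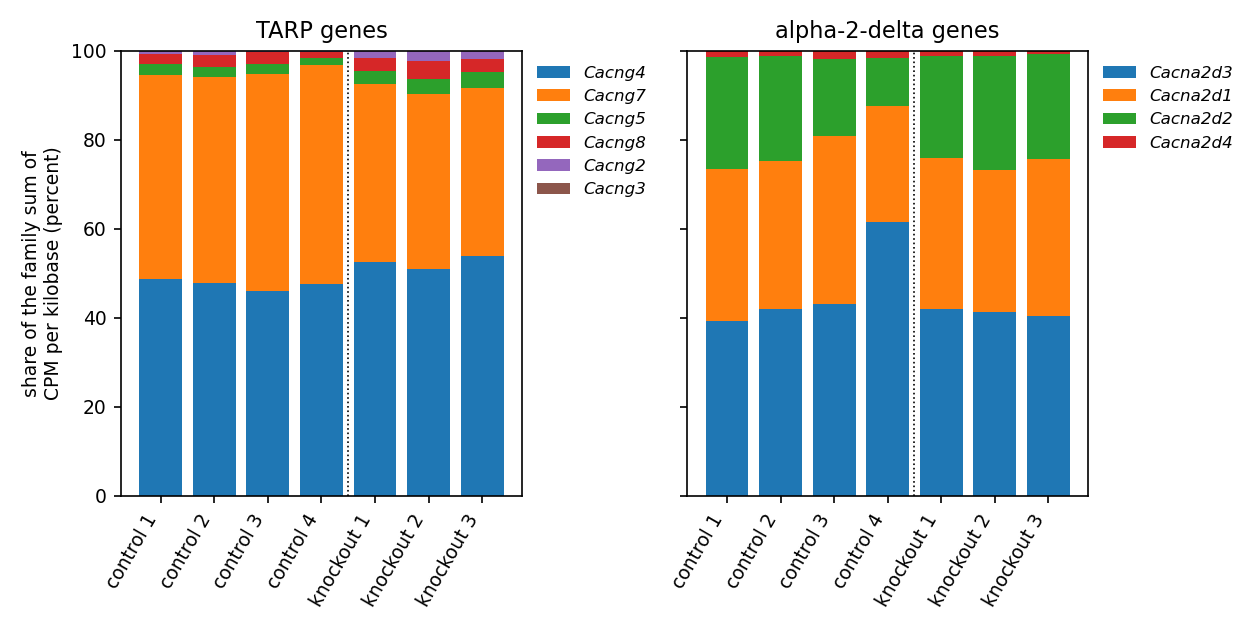
Share of each member in the sum of its family, in percent of CPM per kilobase, as stacked bars for each of the 7 libraries, α2δ genes and TARPs apart. Cacng4 and Cacng7 fill most of every TARP bar, 46.1% to 53.9% and 37.7% to 49.2%, and Cacna2d3 fills 61.6% of the α2δ bar of control replicate 4 against at most 43.0% elsewhere.

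Markers of neurons and astrocytes were also higher in the knockout libraries. The 15 neuron markers summed to 372, 444, 255 and 199 CPM in control replicates 1 to 4 and to 1009, 1294 and 952 CPM in knockout replicates 1 to 3, and 11 of the 14 tested were higher in the knockout, with Dcx (doublecortin) the most abundant. Within each group the order of the libraries by this sum was the order of Cacng2, with control replicate 2 and knockout replicate 2 the highest. Of this list Slc17a7 was not tested, and no neuron marker was at 0 throughout a group. The 10 astrocyte markers summed to 3466 to 3914 CPM in control and 5145 to 5853 CPM in knockout libraries, with 7 of 10 higher, Gfap the most abundant. The OPC markers were higher in sum without overlap, but their median log2 fold change was 0.10. Of the 10, 2 were called higher, Ptprz1 and Vcan, near the 11.6% of all genes, and 8 did not pass the test. The part of these cells in the levels of Cacng2, Cacng4, Cacng5 and Cacng8 was not tested.

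Other marker lists gave other directions. Markers of newly formed oligodendrocytes were lower for 5 and higher for 1 of 9 tested, and 3 did not pass, whereas the TARPs that passed were higher. Microglia markers ran from 571 to 2513 CPM in control and from 568 to 1178 CPM in knockout libraries, and 0 of 10 passed the edgeR test. Fibroblast and mural markers, 410 to 1753 CPM in control and 183 to 427 CPM in knockout libraries, had 1 lower of 9 tested. Endothelial markers, 10.7 to 26.1 and 9.31 to 13.2 CPM, had 1 lower of 5 tested, with Cldn5 at 0 in every control library. Muscle markers summed to 1.12 to 2.69 CPM, with 1 tested, which did not pass.

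**Figure D4:**
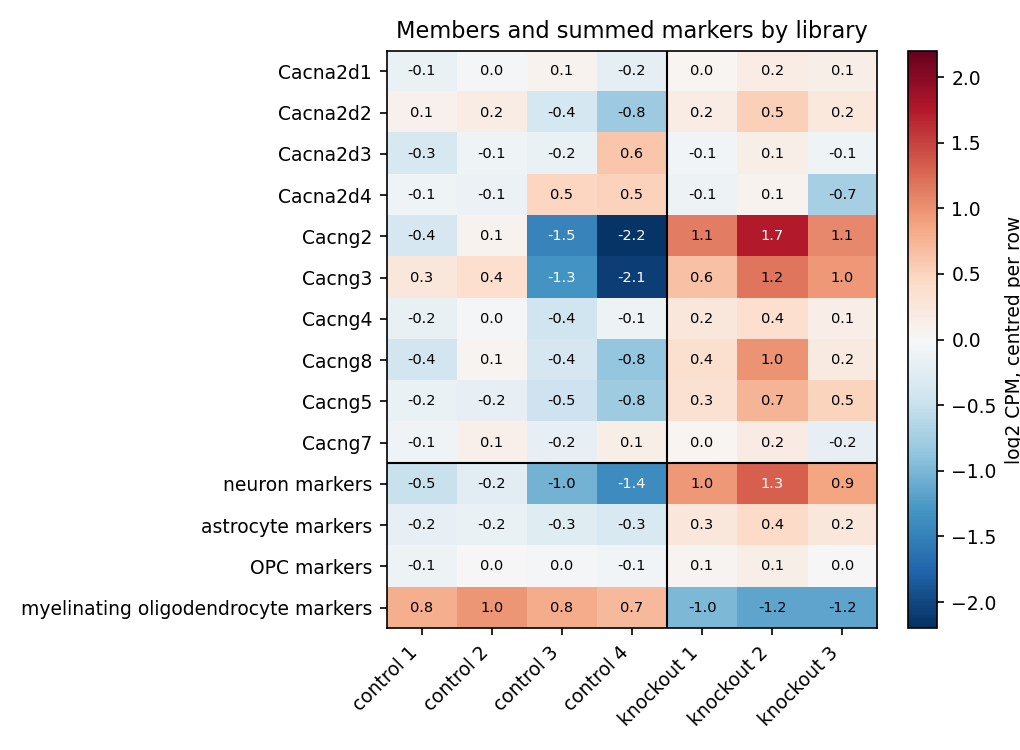
Centred log2 CPM of the 10 members and of marker sums in each library, as a heat map in which each entry is the difference from the mean over the 7 libraries. Cacng2 and the neuron marker sum are lowest in control replicates 3 and 4 and highest in knockout replicate 2, and Cacng7 stays near 0 across the libraries.

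The genes whose proteins work with the members gave a mixed picture, with 19 higher and 6 lower of 48 tested, against the 11.6% and 12.2% of all genes. Of these 25 called partners, 12 passed the edgeR test in every fit that left out 1 library. With the replicate numbers as a block, which treats same-numbered libraries as pairs, 23 partners were higher and 6 lower. Cacna1a, Cacna1i, Cnih2 and Gsg1l were added upward, Cacna1h was added downward and Cacna1s was lost. Over all 18352 genes the same fit called 1741 higher and 2042 lower, fewer than the 2122 and 2246 without the block. The other auxiliary proteins then had 5 higher in place of 3. The count of higher partners was 12 without knockout replicate 1 and 9 without knockout replicate 2, and that of lower partners was 3 without knockout replicate 1.

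Pore subunits of calcium channels, which the α2δ subunits accompany, were higher for 5 and lower for 1 of 9 tested, with a median log2 fold change of 1.17. The count of higher pores was 3 without knockout replicate 2. Cacna1e, the R-type pore, had 10.2, 11.1, 4.03 and 2.68 CPM in control and 33.7, 38.7 and 31.4 CPM in knockout libraries, a log2 fold change of 2.31 (edgeR adjusted p = 0.0134, and 0.0514 without knockout replicate 2). Cacna1c, an L-type pore, had 44.8, 43.0, 29.6 and 28.7 against 81.9, 86.5 and 78.8 CPM, a log2 fold change of 1.17 (edgeR adjusted p = 0.00425). Cacna1b, Cacna1d and Cacna1g, pores of the N, L and T types, also rose, by 1.29, 0.72 and 1.59 on the log2 scale. The call of Cacna1b was lost without knockout replicate 1 (edgeR adjusted p = 0.0581) or 2 (0.0918). Cacna1s, the skeletal muscle pore, fell by 1.39 on that scale at 3 to 21 counts in a library, and Cacna1f was too low to be tested. The call of Cacna1s was lost without any 1 of the knockout libraries (edgeR adjusted p up to 0.152), and among 9 other tests, scalings, filters and covariates it was tested in 8 and passed in 1 (adjusted p 0.0454 to 0.0924). The list of pore genes thus held 5 that rose and that of the α2δ genes none, but the difference between the lists was not tested.

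Among the intracellular β subunits, Cacnb4 had 79.1, 85.0, 65.1 and 71.4 CPM in control and 30.03, 30.3 and 29.0 CPM in knockout libraries. Its log2 fold change was -1.33 ± 0.10 (SE), with an edgeR adjusted p of 0.000197, and it passed in all 7 fits without 1 library. Cacnb1 rose by 0.77, a call kept in 2 of these 7 fits (edgeR adjusted p up to 0.129), and the other 2 of the 4 did not pass the test. The median of this list was 0.45.

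Of the AMPA receptor subunits, which the TARPs accompany, Gria1 rose. It had 60.8, 78.2, 28.9 and 14.6 CPM in control and 169, 244.5 and 174 CPM in knockout libraries, a log2 fold change of 2.10 ± 0.52 (SE) with an edgeR adjusted p of 0.0259. Without knockout replicate 1, 2 or 3 the edgeR adjusted p was 0.0564, 0.0888 and 0.0512. Its controls fell into the same order as those of Cacng2, replicate 2 the highest and replicate 4 the lowest. Gria2, at 210 to 255 CPM in control and 244 to 261 CPM in knockout libraries, had a log2 fold change of 0.08, and none of Gria2, Gria3 and Gria4 passed the test. Median log2 fold change over the 4 was 0.19.

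Other auxiliary and assembly proteins of AMPA receptors were higher for 3 and lower for 1 of 14 tested, with a median of 0.16. The count of lower ones was 3 without control replicate 3, and that of higher ones was 5 with the ribosomal share as covariate. Shisa9 (log2 fold change 0.90), Frrs1l (0.90), needed for receptor assembly, and the secreted Olfm1 (0.71) rose, and the cornichon gene Cnih3 fell by 0.99. The call of Shisa9 was kept in 3 of 7 fits without 1 library (edgeR adjusted p up to 0.120), and that of Cnih3 was lost without knockout replicate 1 (0.0528). Scaffolds and trafficking partners were higher for 8 and lower for 2 of 13, with a median of 0.81. The count of higher scaffolds was 4 without knockout replicate 2 and 5 without knockout replicate 1, control replicate 3 or control replicate 4, and the calls of Grip2 and Nptxr were kept in 1 of 7 such fits. These genes were named after their values were seen, and among them is Dlg4, which encodes PSD-95, the partner of the type I ends shown above, with a log2 fold change of 0.61 (edgeR adjusted p = 0.0404), a call kept in 2 of the 7 fits without 1 library (adjusted p up to 0.118). Its relative Dlg1 fell by 0.92, from 210 to 236 CPM in control to 108 to 124 CPM in knockout libraries.

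Extracellular partners of α2δ were higher for 1 and lower for 1 of 4 tested, with a median of -0.49. The thrombospondin Thbs1, a ligand of α2δ-1, had 118, 100.1, 231 and 289 CPM in control and 52.6, 36.5 and 68.5 CPM in knockout libraries. Every knockout library was below every control, and the libraries high in Thbs1, control replicates 3 and 4, were also those high in the fibroblast and mural marker sum (528, 410, 1753 and 1405 CPM in control, 302, 183 and 427 CPM in knockout libraries), whose part was not tested. This was a log2 fold change of -1.81 (edgeR adjusted p = 0.0220, and 0.0791 or 0.0855 without knockout replicate 1 or 2). Thbs3 rose by 0.80, a call kept in 3 of the 7 fits (edgeR adjusted p up to 0.0887), Lrp1 at 0.30 did not pass the test, and Thbs4 and Comp were too low to be tested.

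**Figure D5:**
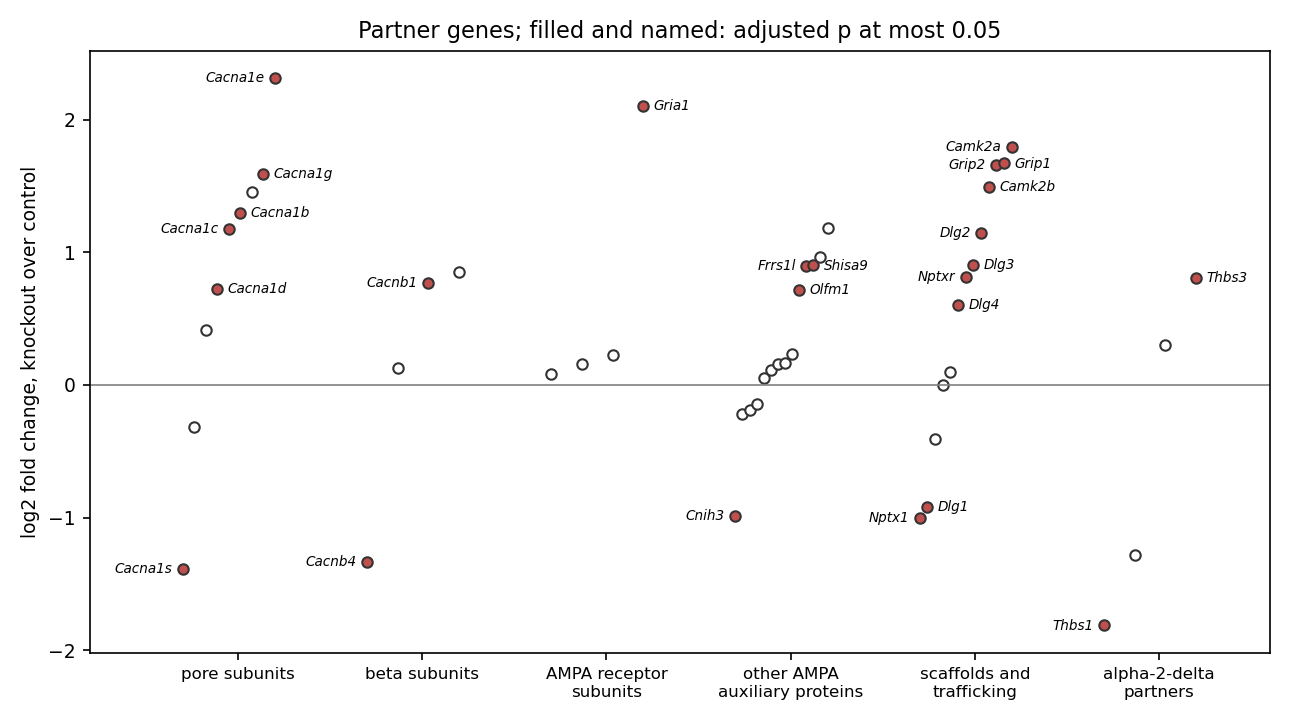
Log2 fold change, knockout over control, of each tested partner gene, by list, filled and named where the adjusted p is at most 0.05 and open otherwise. Points above 0 dominate the pore subunits (5 higher, 1 lower of 9) and the scaffolds (8 higher, 2 lower of 13), and Gria1 stands alone among the 4 AMPA receptor subunits.

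Several TARP genes are neighbours, and differences between neighbours were not tested. On chromosome 7, Cacng7 lies 22.5 kb from Cacng8, which rose, while Cacng7 had a log2 fold change of 0.02. On chromosome 11, Cacng4 and Cacng5, 80.05 kb apart, both rose, by 0.44 and 0.91 on the log2 scale. Cacng1 and Cacng6, the gamma subunits outside the TARPs in the same clusters, had 0 to 9 and 1 to 8 counts in a library and were not tested. Prkca, a protein kinase C gene beside Cacng5, did not pass the test, at -0.20. The members on chromosome 7 are 58.7 to 60.5 Mb from Klf13.

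The genes whose profile over the 7 libraries was nearest to that of a member were sought for Cacna2d1 and Cacng5, which had the lowest adjusted p of their families. By the root mean square difference of centred log2 CPM, Sec14l1 (0.0176), Man2c1 (0.0290) and Foxo3 (0.0335) were nearest to Cacna2d1, against a median of 0.289 over all genes. Acot11 (0.0542), Tst (0.0719) and Gldc (0.0796) were nearest to Cacng5, against a median of 0.564.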

How the data were processed

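The deposited files hold whole-number counts of reads per gene, which the authors made for each library without normalization. The paper and the submitters' processing notes name trimming with Trimmomatic 0.36, mapping with STAR 2.5.2b to GRCm38 and counting of unique hits in exons with featureCounts of Subread 1.5.2. The annotation release and strand setting are not given in the sources used here. Exon lengths, deposited beside the counts, served as the divisor per kilobase. Symbols were found for 48970 of 49315 identifiers, and 157 of 158 genes of the lists matched (Tmem2 did not).

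Counts of all 7 libraries were fitted in R 4.3.3 with edgeR 4.0.16 (filterByExpr by group, TMM factors, robust quasi-likelihood, group as the only term), with Benjamini-Hochberg adjustment over 18352 genes. The fit was tested on simulated data. The threshold on the adjusted p was 0.05. Total counts were 24507471 to 59596479 per library, and a count of 0 allows up to 3 counts, 0.0503 to 0.122 on the CPM scale, for counting error only. No pair of libraries of the same group agreed within sampling noise (chi-square per gene 17.0 to 216 between replicates of a group).

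The members and lists were chosen with earlier results of these data known. Named genes were the members, Klf13, partner genes that passed the test or were the 2 most abundant of their list, gene neighbours, the 3 most abundant markers and those at 0, and the 3 nearest profiles of the member with the lowest adjusted p in each family. Scaffold genes, markers beyond these, partners called with the replicate block alone and genes said to be untested are named outside that rule. The values of some genes are not reported here.

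Deviations from the group means of same-numbered control and knockout libraries correlated at 0.113, 0.463 and 0.168 over 18352 genes (different numbers -0.529 to 0.197). Every same-numbered pair was positive, but control replicate 4 with knockout replicate 1, at 0.197, exceeded those at 0.113 and 0.168. The values therefore do not settle whether the replicate numbers pair the samples. The labels do not say what a number shares.

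Alternatives were DESeq2 1.42.0, limma 3.58.1 with voom, other scaling factors and filters, the replicate block, the ribosomal share as covariate, each library left out and, added after seeing the data, the 2 classes of ribosomal share apart.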

Additional observations from a re-analysis of the deposited data

Results flagged for a closer look

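The share of Cacna2d3 in the α2δ sum was 61.6% in control replicate 4, against at most 43.0% in the other 3 control libraries. The gap took 0.834 of the range of the group, above the critical value of Dixon's 95% test for 4 samples, which chance passes in about 1 of 20 groups. The level of Cacna2d3 was highest in the same library (15.6 CPM).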

How the results depend on the processing

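No α2δ gene passed the test in any of the 18 alternatives except Cacna2d1 with the ribosomal share as covariate (0.26, adjusted p = 0.0380), and no member was called lower in any. The sign of Cacna2d3 turned with the replicate block (0.19), without control replicate 4 (0.22, range over the 7 fits without 1 library -0.16 to 0.22) and in the libraries below 10% ribosomal share (0.24), and that of Cacng7 without 1 library (-0.067 without knockout replicate 2, -0.037 without control replicate 3, range -0.067 to 0.12) and above 10% (-0.12). The block, which treats same-numbered libraries as pairs, changed no other member's direction or call (partner calls stand in the report), and Cacng2 was at 1.89 with it. Without 1 library, the log2 fold change ran from 1.84 to 2.52 for Cacng2, 0.36 to 0.50 for Cacng4 and 0.63 to 1.08 for Cacng8. Without a filter on low counts, which tested 34026 genes, Cacng2 (2.09, edgeR adjusted p = 0.0982) and Cacng8 (0.91, 0.0574) lost their calls, and with total counts only Cacng8 did (0.96, 0.0553). In the libraries above 10% the values were 2.12, 0.31, 0.87 and 0.83 for Cacng2, Cacng4, Cacng8 and Cacng5, and below 10% 2.24, 0.58, 1.11 and 1.05, with no call in either. The second class, 2 controls and 1 knockout library assumed to vary like them, gave 0 calls among 18767 genes in edgeR, Klf13 included (-3.78).

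The count of members that rose was 2 without the filter, 1 to 4 without 1 library and 0 in each class. Higher partners numbered 11 without the filter, 9 to 19 without 1 library, and 3 and 0 in the classes, and lower ones 3 to 7 without 1 library and 0 below 10%. Over all genes, 2122 were higher and 2246 lower, against 1209 and 1254 without knockout replicate 1, 850 and 1317 without knockout replicate 2, and 650 and 1025 above 10%. The share of Cacng2 differed by 1.27 points, and by 2.21 without division by exon length. The cause of these changes was not tested, other than the fewer libraries or the additional genes of a fit.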
